A study of Homo sapiens with 22 samples.

Results

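The genes of the E2F transcription factors and of the retinoblastoma pocket proteins were followed through all 22 libraries of an RNA sequencing experiment in H1299 cells. The family was taken by name as E2F1, E2F2, E2F3, E2F4, E2F5, E2F7, E2F8, RB1, RBL1 and RBL2, which is 10 of the 37908 genes in the count table, and all 10 were found and passed the filter on low counts in every comparison. H1299 cells come from a human non-small cell lung carcinoma and here carried a doxycycline-inducible shRNA against BRCA2. Cells without doxycycline (BRCA2-proficient) or after 2 µg/mL doxycycline for 3 days (BRCA2-deficient) received a control siRNA or an siRNA to β-catenin (siβ-catenin), and were left without inhibitor or exposed for 24 h to 250 nM of the GSK3 inhibitor LY2090314 (GSK3i). This gave 8 groups, 6 of 3 libraries and 2 of 2 libraries (BRCA2-proficient cells without GSK3i, with either siRNA). In GRCh37 the pocket protein genes lie at chr13:48877880-49173572 (RB1, plus strand), chr20:35624752-35724400 (RBL1, minus) and chr16:53467889-53525560 (RBL2, plus). The activators lie at chr20:32263283-32274191 (E2F1, minus), chr1:23832930-23857725 (E2F2, minus) and chr6:20402110-20493945 (E2F3, plus), and the repressors at chr16:67226058-67232821 (E2F4, plus), chr8:86089389-86129387 (E2F5, plus), chr12:77415028-77459349 (E2F7, minus) and chr11:19245610-19263167 (E2F8, minus). "Untreated" means control siRNA without GSK3i. The study used 1 engineered line, and no library had doxycycline without the shRNA, so BRCA2 depletion and doxycycline cannot be told apart.

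Most E2F factors bind DNA with a DP partner. E2F factors switch on or hold back the genes that carry cells from G1 into DNA replication. E2F1, E2F2 and E2F3 mainly activate these genes, E2F4 and E2F5 mainly repress them together with pocket proteins, and the atypical E2F7 and E2F8 repress them without a pocket protein. The pocket proteins RB (RB1), p107 (RBL1) and p130 (RBL2) bind E2Fs until cyclin-dependent kinases phosphorylate them, and p130 is best known from resting cells, where with E2F4 and the MuvB proteins it forms the repressive DREAM complex. GSK3 marks β-catenin for destruction, so an inhibitor of GSK3 lets β-catenin accumulate and act with TCF/LEF factors.

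Each library held between 18938266 and 29280122 counted reads, and no member had fewer than 97 reads in any library. The labels of BRCA2 and β-catenin held, since BRCA2 was at 513.6 to 1111 normalised counts without and 71.4 to 225.3 with doxycycline, and CTNNB1 at 5206 to 8669 with control siRNA and 976.8 to 2217 with siβ-catenin. AXIN2, a WNT target, was at 65 to 67.2 normalised counts in BRCA2-proficient cells with siβ-catenin and at 73.1 to 145 with GSK3i added. The latter range overlapped the untreated libraries of this background (72.3 to 82.4), so AXIN2 was a weak check of the GSK3i label after siβ-catenin. In BRCA2-deficient cells AXIN2 was at 80.8 to 96.9 with siβ-catenin and at 117.5 to 227.1 with GSK3i added. All of these were far below the GSK3i libraries with control siRNA (1027 or more). By a score of many genes, however, the label of GSK3i did not hold everywhere. A score was made from 50 genes higher and 50 genes lower with GSK3i in BRCA2-deficient siβ-catenin cells, as the difference of their mean log2 levels. It lay between 2.25 and 2.78 in the other GSK3i libraries and between -1.26 and -0.84 in the other libraries without GSK3i. These ranges include the libraries in which the genes were chosen. The BRCA2-proficient library labelled siβ-catenin replicate 2 had a score of 2.53, the library labelled GSK3i plus siβ-catenin, replicate 2 had -1.05, and the library labelled siβ-catenin replicate 3 stood between, at -0.23. No sample was moved to another group, and comparisons that hold the replicate 2 libraries are given with and without them. The epithelial keratins KRT8 and KRT18 and the mesenchymal VIM were high (lowest 2037, 5068 and 12640 normalised counts), while KRT19, EPCAM, CDH1, SFTPB, SFTPC, NAPSA and the leukocyte, endothelial and fibroblast markers did not exceed 44.34, and the lung factor NKX2-1 lay between 19.84 and 108.3. In a culture, fewer cells with a transcript and less of it per cell cannot be told apart.

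Stretches before the start sites are shown for the members whose RefSeq promoter window holds an E2F match, and for E2F4 and RBL2, the members with the steadiest response to GSK3i. The window ran from 250 bases before to 50 bases after the start (GRCh38.p14), and 7 members had a usable one, some with several. The letters TTTCGCGC, TTTGGCGC, TTTCCCGC and TTTGCCGC were searched on both strands as the E2F motif, and 3.315% of 35116 RefSeq windows held at least 1 of them. The capitals mark the matches, with those in E2F3 and the first in E2F1 read on the other strand.
E2F1, chr20:33686386-33686438, minus strand: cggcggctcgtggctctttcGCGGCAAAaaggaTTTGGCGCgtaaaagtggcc
RBL1, chr20:37095998-37096043, minus strand: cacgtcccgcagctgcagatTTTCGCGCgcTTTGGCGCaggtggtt
E2F2, chr1:23531248-23531295, minus strand: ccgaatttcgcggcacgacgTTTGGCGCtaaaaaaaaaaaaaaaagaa
E2F3, chr6:20401806-20401853, plus strand: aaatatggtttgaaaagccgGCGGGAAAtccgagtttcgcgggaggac
E2F4, chr16:67192095-67192154, plus strand: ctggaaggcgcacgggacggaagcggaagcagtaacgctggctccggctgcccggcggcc
RBL2, chr16:53434411-53434470, plus strand: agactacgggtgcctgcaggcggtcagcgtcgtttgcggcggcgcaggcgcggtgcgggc
E2F1 and RBL1 each had 2 matches close to the start, and E2F2 and E2F3 had 1. The windows of E2F4, E2F7 and RBL2 and the second window of E2F3 held none of these letters. The TCF/LEF letters CTTTGAT, present in 2.617% of all windows, were in no member's window, and the cell cycle homology letters TTTGAA or TTCGAA, present in 16.35%, were found in E2F3, where they do not overlap the E2F match, and in RBL2. These are matches of letters only.

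Levels between genes are compared per length, as reads per kb of merged exon scaled to library size (RPKM), over all 22 libraries. E2F1 (median 26 RPKM) and E2F4 (25.4 RPKM) were highest, followed by E2F3 (20.9 RPKM), E2F7 (14.3 RPKM), RB1 (13.7 RPKM) and E2F5 (11.7 RPKM). RBL1 (7.15 RPKM), RBL2 (3.71 RPKM), E2F2 (3.12 RPKM) and E2F8 (2.07 RPKM) were the low members. E2F1 was above E2F4 in 15 of 22 libraries and E2F7 above RB1 in 12, so these neighbours were not separated, nor were RBL1 and RBL2 (14 libraries) or RBL2 and E2F2 (13). E2F2 was above E2F8 in 22 of 22. The members that varied most were E2F8, E2F7, RBL2 and E2F2, whose highest normalised count was 5.74, 5.52, 5.24 and 5.16 times the lowest. E2F4 and E2F3 varied least (2.24 and 2.31 times). The plot of normalised counts by library shows all members in all groups.

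**Figure D1:**
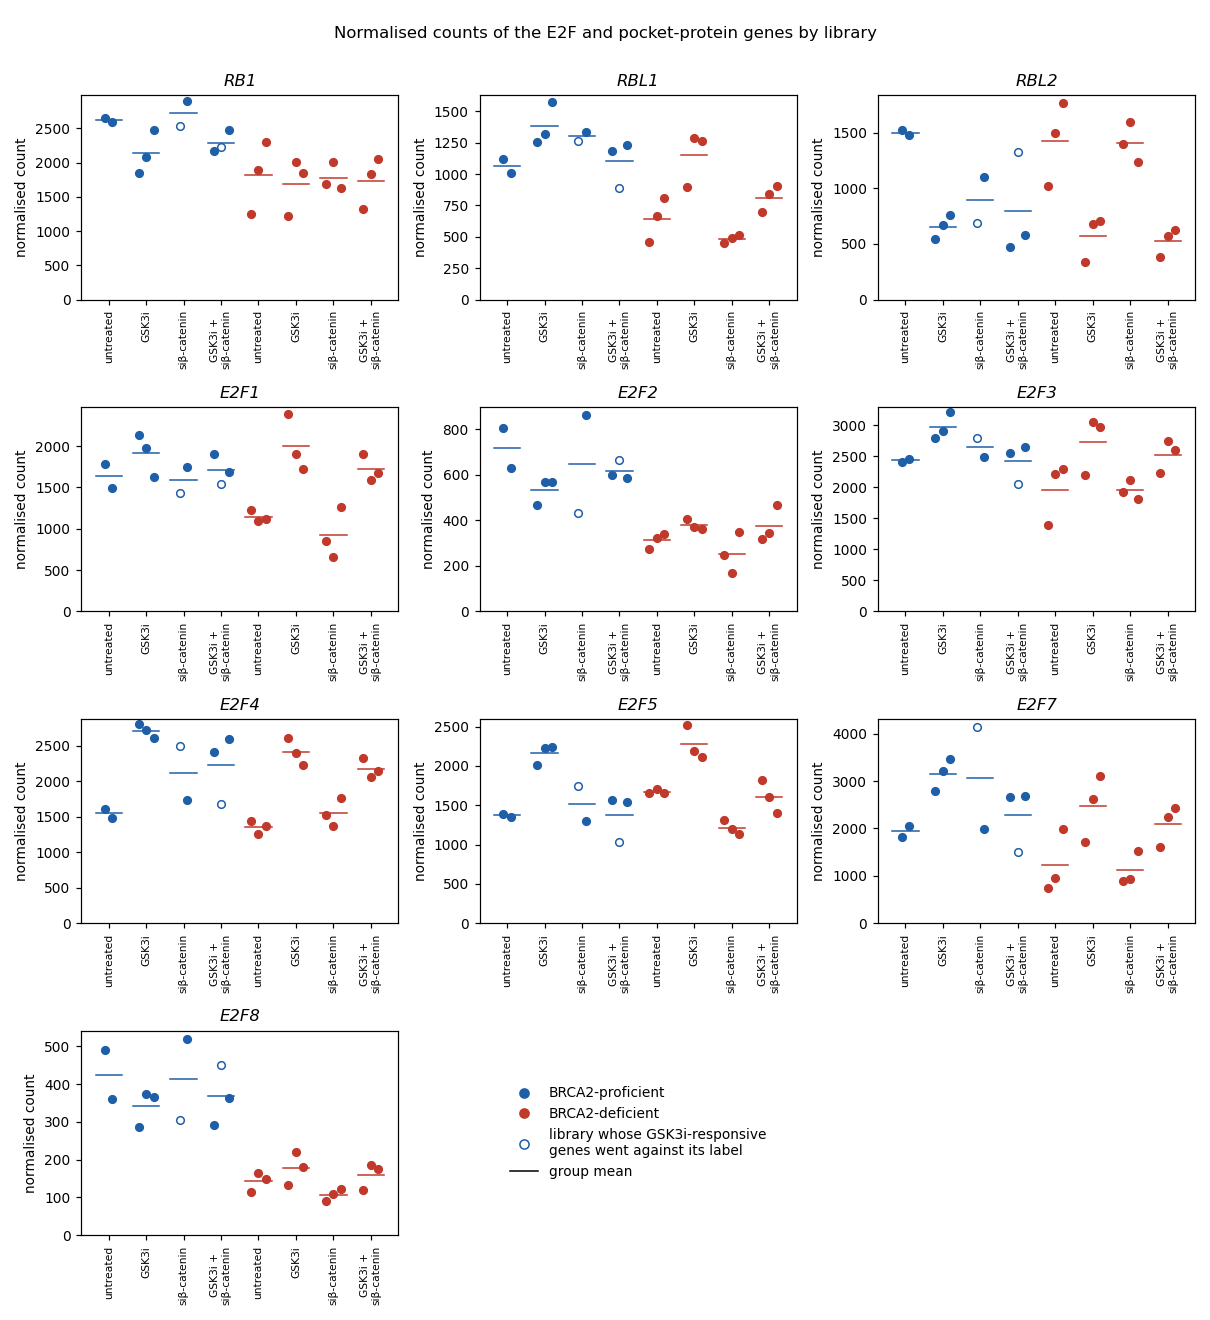
Normalised counts (y axis, linear from 0) of the 10 genes in each of 22 libraries, by group (x axis). Points are libraries and lines are group means. Blue is BRCA2-proficient, red is BRCA2-deficient, and open circles are the replicate 2 libraries whose GSK3i-responsive genes went against their labels. RBL2 is low in the GSK3i groups, apart from the open circle at 1324 with GSK3i plus siβ-catenin. It is also below the untreated libraries in BRCA2-proficient cells with siβ-catenin alone (690 and 1104). E2F2 and E2F8 are low in the BRCA2-deficient groups.

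With control siRNA, GSK3i changed some members of the family in both directions. RBL2 fell, and E2F4 and E2F7 rose, in each. E2F5 in BRCA2-proficient cells, and E2F1 and RBL1 in BRCA2-deficient cells, also rose beyond the thresholds given next. In the other background these moved the same way without meeting them (log2 fold changes 0.44, 0.21 and 0.36). A gene was called at a Benjamini-Hochberg adjusted p under 0.05 (DESeq2, over all genes tested) with a log2 fold change beyond 0.5 either way. In BRCA2-proficient cells 3 of 10 members were called higher, against 11.8% of all genes tested, and 1 lower, against 14.2%. In BRCA2-deficient cells 4 were called higher, against 11.6%, and 1 lower, against 13.8%. In either direction that was 4 and 5 of 10 members, against 26.1% and 25.4% of all genes, and the share called lower was no larger than among all genes. The median log2 fold change was 0.241 and 0.461 over the members, and -0.002 and 0.025 over all genes.

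RBL2, the gene of p130, had the largest change of the members with GSK3i in both backgrounds. It stood at 1522 and 1475 normalised counts in the untreated BRCA2-proficient libraries and at 540, 666 and 760 with GSK3i. In BRCA2-deficient cells it stood at 1018, 1500 and 1766 untreated and at 337, 675 and 707 with GSK3i. Each GSK3i library was below each untreated library of its background. The log2 fold change was -1.21 (SE 0.166, adjusted p = 1.45e-11) with BRCA2 and -1.32 (SE 0.305, adjusted p = 1.64e-04) after its depletion. No alternative processing and no left-out library ended either call. RBL2 shares exon sequence with AKTIP on the opposite strand, and the strand setting of the counting was not stated, so reads there could not be assigned with certainty. AKTIP had 158.2 to 301.1 normalised counts and log2 fold changes with GSK3i of 0 (BRCA2-proficient) and -0.45 (BRCA2-deficient).

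RBL1, the gene of p107, rose in BRCA2-deficient cells. It was at 1121 and 1011 normalised counts in untreated BRCA2-proficient cells and at 1252, 1320 and 1574 with GSK3i, and the log2 fold change of 0.36 (SE 0.153, adjusted p = 0.0531) was not called. In BRCA2-deficient cells it was at 456, 662 and 807 untreated and at 898, 1287 and 1264 with GSK3i, a log2 fold change of 0.84 (SE 0.25, adjusted p = 0.00458). The groups did not overlap in either background. Without BRCA2-deficient GSK3i replicate 2 the adjusted p was 0.0583. RB1 itself was not called, with log2 fold changes of -0.31 (adjusted p = 0.0945) and -0.11 (adjusted p = 0.821). Its 3 lowest libraries were BRCA2-deficient replicate 1 with GSK3i (1214), untreated (1245) and with both treatments (1327).

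The ratio of RBL2 to RBL1, each in RPKM, set the pocket proteins against each other within a library. It was 0.997 and 1.07 in untreated BRCA2-proficient cells and 0.317, 0.37 and 0.355 with GSK3i. In BRCA2-deficient cells it was 1.64, 1.67 and 1.61 untreated and 0.275, 0.385 and 0.411 with GSK3i. With siβ-catenin the BRCA2-deficient libraries ranged from 1.75 to 2.39 without GSK3i and from 0.401 to 0.507 with it. So RBL2 was the larger of the pair in BRCA2-deficient cells without GSK3i, and RBL1 was the larger in each BRCA2-deficient library with it. With siβ-catenin and no GSK3i, BRCA2-proficient replicate 3 had 0.606 and the library labelled replicate 2 had 0.4, both below the untreated libraries. The 0.4 was above the GSK3i libraries of its background with control siRNA and within the range of the BRCA2-deficient ones. With GSK3i and siβ-catenin, BRCA2-proficient replicates 1 and 3 had 0.292 and 0.345. RB1 made up 48.9% to 58.3% of the 3 pocket protein transcripts per length in all libraries. The library labelled GSK3i plus siβ-catenin, replicate 2 (BRCA2-proficient) had 1.09, just above both untreated libraries of its background.

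**Figure D2:**
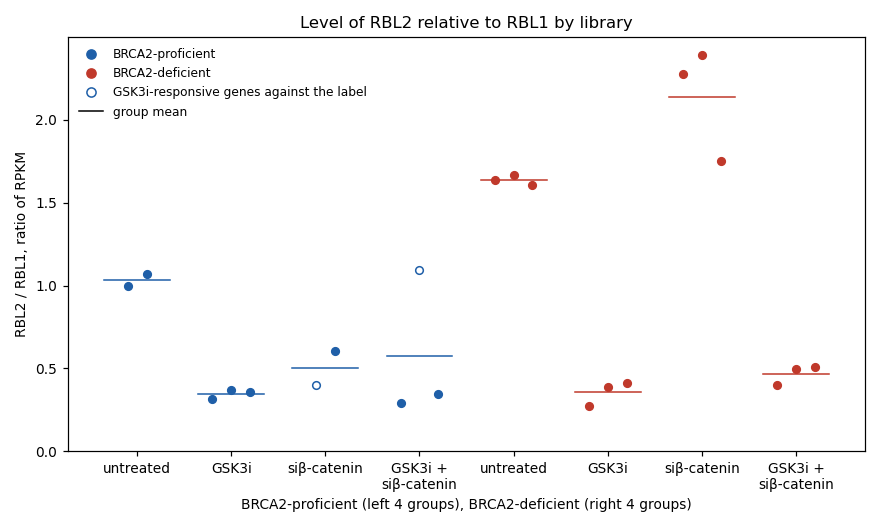
Ratio of RBL2 to RBL1 in RPKM (y axis, linear from 0) in each library by group (x axis), with group means as lines. The GSK3i libraries of both backgrounds lie at or below 0.507, except the library labelled GSK3i plus siβ-catenin, replicate 2 (open circle at 1.09). The BRCA2-proficient libraries with siβ-catenin and no GSK3i lie at 0.4 (replicate 2) and 0.606 (replicate 3).

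E2F4, the E2F that works with p130 in resting cells, rose. It was at 1611 and 1486 normalised counts in untreated BRCA2-proficient cells and at 2803, 2724 and 2607 with GSK3i. In BRCA2-deficient cells it was at 1440, 1252 and 1368 untreated and at 2607, 2403 and 2230 with GSK3i. The groups lay far apart in both backgrounds, with log2 fold changes of 0.79 (SE 0.129, adjusted p = 1.46e-08) and 0.83 (SE 0.148, adjusted p = 4.73e-07), and both calls held under each alternative and each left-out library. E2F5, its close relative, was at 1388 and 1355 in untreated BRCA2-proficient cells and at 2006, 2226 and 2246 with GSK3i (log2 fold change 0.64, SE 0.132, adjusted p = 1.44e-05). In BRCA2-deficient cells E2F5 went from 1655, 1712 and 1655 to 2526, 2194 and 2116, again without overlap, but the log2 fold change of 0.44 (adjusted p = 0.0106) stayed under the size required. E2F5 overlaps the exons of RBIS on the opposite strand. RBIS had 576.4 to 918.3 normalised counts and log2 fold changes with GSK3i of 0.38 and 0.12 in the BRCA2-proficient and BRCA2-deficient cells. The genes opposite the exons of E2F8 (CSRP3-AS1) and RBL1 (ENSG00000269846) had at most 2.01 and 14 normalised counts.

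Among the activators, E2F1 in BRCA2-deficient cells was called with GSK3i, while E2F2 and E2F3 were called in neither background. The members were not tested against each other. E2F1 was at 1788 and 1493 normalised counts in untreated BRCA2-proficient cells and at 2136, 1977 and 1629 with GSK3i, and these groups overlapped (log2 fold change 0.21, adjusted p = 0.326). In BRCA2-deficient cells E2F1 went from 1222, 1098 and 1117 to 2388, 1904 and 1719, a log2 fold change of 0.80 (SE 0.178, adjusted p = 7.83e-05). E2F2 had 808 and 629 in untreated BRCA2-proficient cells and 469, 567 and 569 with GSK3i, against 276, 323 and 339 and then 407, 370 and 361 in BRCA2-deficient cells. The GSK3i libraries of E2F2 were thus all below the untreated ones in the first background and all above them in the second. Neither was called (log2 fold change -0.44, adjusted p = 0.0406, and 0.28, adjusted p = 0.253). E2F3 was not called either, at 0.27 (adjusted p = 0.0863) and 0.48 (adjusted p = 0.117), but without BRCA2-deficient GSK3i replicate 1 the latter was 0.61 (adjusted p = 0.0385).

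Of the atypical repressors, E2F7 was called higher in both backgrounds and E2F8 in neither. E2F7 was at 1828 and 2055 normalised counts in untreated BRCA2-proficient cells and at 2799, 3211 and 3459 with GSK3i (log2 fold change 0.69, SE 0.143, adjusted p = 1.57e-05). In BRCA2-deficient cells its untreated libraries spread over 752, 963 and 1981 and its GSK3i libraries over 1715, 2629 and 3109. Each GSK3i library was above the untreated library of its number, but the groups overlapped (log2 fold change 1.01, SE 0.348, adjusted p = 0.0167). This second call was lost in several fits, as the adjusted p was 0.075 with edgeR's quasi-likelihood test, and between 0.082 and 0.13 without untreated replicate 1 or 2, or without GSK3i replicate 2 or 3. In BRCA2-proficient cells E2F7 had an adjusted p of 0.143 when all groups were fitted in 1 model. E2F8 was not called, with log2 fold changes of -0.32 (adjusted p = 0.221) and 0.32 (adjusted p = 0.407).

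**Figure D3:**
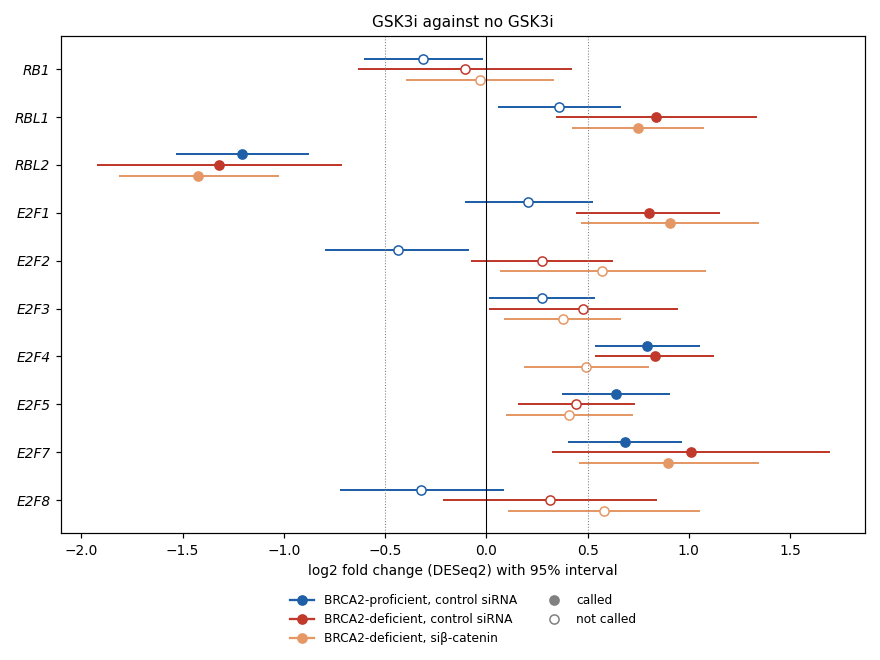
Log2 fold change with GSK3i (x axis) with its 95% interval for each gene (y axis), in BRCA2-proficient cells (blue) and BRCA2-deficient cells (red) with control siRNA and in BRCA2-deficient cells with siβ-catenin (orange). Filled points are called, and dotted lines mark the size required for a call. RBL2 lies below -0.5 in all 3, and E2F7 above 0.5.

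Whether the response to GSK3i differed between the backgrounds was tested by the interaction term. By DESeq2 0 of 10 members were called, against 0.0345% of all genes, and edgeR also called 0, with 2 members at an unadjusted p under 0.05. These were E2F2, with a difference of 0.70 on the log2 scale (95% interval 0.24 to 1.15, adjusted p = 0.691), and E2F1, with 0.58 (0.11 to 1.05, adjusted p = 1). For RBL2 the interval of the difference ran from -0.93 to 0.69 and for E2F4 from -0.28 to 0.33. A different response of E2F1 or E2F2 in the backgrounds was therefore not established by this test, and the intervals do not show that the responses were equal.

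After siβ-catenin, GSK3i was followed in the same way. In BRCA2-deficient cells 3 of 10 members were called higher, against 8.56% of all genes, and 1 lower, against 11.5%. E2F1 had 857, 652 and 1261 normalised counts with siβ-catenin alone and 1907, 1593 and 1671 with GSK3i added (log2 fold change 0.91, SE 0.222, adjusted p = 5.73e-04). RBL2 had 1395, 1595 and 1231 and then 379, 567 and 622 (log2 fold change -1.43, SE 0.199, adjusted p = 9.58e-11). RBL1 rose by a log2 fold change of 0.75 (adjusted p = 8.3e-05) and E2F7 by 0.90 (adjusted p = 7.73e-04). For these 4 members no GSK3i library overlapped the others, but genes without overlap were not counted over all genes. E2F4 (0.49, adjusted p = 0.0103), E2F5 (0.41, adjusted p = 0.043) and E2F3 (0.38, adjusted p = 0.0429) remained under the size required. With the replicate number as a block, E2F2 (0.61, adjusted p = 0.00313) and E2F8 (0.57, adjusted p = 0.0328) were called higher too. Without siβ-catenin replicate 3 E2F2 and E2F4 were called, without GSK3i with siβ-catenin replicate 1 E2F8, without its replicate 2 E2F4, and without its replicate 3 E2F4 and E2F5. The responses to GSK3i with and without siβ-catenin were compared by the interaction term in BRCA2-deficient cells. DESeq2 and edgeR each called 0 members, against 0.486% of all genes, and 0 had an unadjusted p under 0.05. The interval of the difference ran from -0.90 to 0.66 for RBL2 and from -0.73 to 0.01 for E2F4.

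In BRCA2-proficient cells the same comparison rested on the libraries in doubt. With all libraries, GSK3i after siβ-catenin changed 0 of 10 members by DESeq2, against 0.0529% of all genes, 0 by edgeR, and 0 at an unadjusted p under 0.05. RBL2 was at 690 and 1104 normalised counts without GSK3i and at 472, 1324 and 581 with it, so that each replicate 2 library lay nearest to a library of the other group. With both replicate 2 libraries left out, 1 library without GSK3i remained, siβ-catenin replicate 3. Its spread is assumed to be that of the others, and its own score of -0.23 lay between the ranges with and without GSK3i. In that fit RBL2 had a log2 fold change of -1.07, E2F4 of 0.53 and E2F7 of 0.42. The interaction of GSK3i with siβ-catenin in BRCA2-proficient cells called 0 members by DESeq2, against 7.63% of all genes, and 0 by edgeR, with 5 at an unadjusted p under 0.05. Without the replicate 2 libraries, which leaves the same single library, the difference for RBL2 went from 1.04 (adjusted p = 0.176) to 0.14. Leaving out GSK3i with siβ-catenin replicate 1 or 3 gave the replicate 2 library of that group more weight. Then 3 and 2 of 10 members were called, against 9.4% and 11% of all genes. Leaving out siβ-catenin replicate 3 left the replicate 2 library as the single one of its group.

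Between siβ-catenin and control siRNA E2F5 was the only member called, and this only under GSK3i. It fell from 2006, 2226 and 2246 to 1561, 1036 and 1536 normalised counts in BRCA2-proficient cells, and from 2526, 2194 and 2116 to 1816, 1603 and 1405 in BRCA2-deficient cells. The groups did not overlap, with log2 fold changes of -0.63 (SE 0.185, adjusted p = 0.0192) and -0.51 (SE 0.158, adjusted p = 0.0241). That is 1 of 10 members lower in each background, against 1.92% and 2.57% of all genes. With edgeR the adjusted p was 0.113 and 0.116, and both calls were lost. Without the library labelled GSK3i plus siβ-catenin, replicate 2 (BRCA2-proficient), E2F5 had -0.46 (adjusted p = 0.00581), under the size required. In BRCA2-proficient cells the call was also lost without GSK3i replicate 2 or 3 (adjusted p = 0.2 and 0.137), and in BRCA2-deficient cells without GSK3i replicate 1, 2 or 3 (0.101, 0.177 and 0.0948) or GSK3i with siβ-catenin replicate 2 or 3 (0.164 and 0.194). Without BRCA2-deficient GSK3i replicate 1 RBL1 was called instead (-0.65, adjusted p = 0.00761). The interaction with BRCA2 status called 0 members by DESeq2, against 0.0057% of all genes, 0 by edgeR, and 0 at an unadjusted p under 0.05. Without the library labelled GSK3i plus siβ-catenin, replicate 2, it also called 0 members, and 11 genes in all against 1.

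Without GSK3i, siβ-catenin called 0 of 10 members in either background by DESeq2 or edgeR, against 2.97% of all genes (BRCA2-proficient) and 2.03% (BRCA2-deficient), with 2 and 1 members at an unadjusted p under 0.05. In BRCA2-deficient cells this was E2F5, at 1655, 1712 and 1655 untreated and 1318, 1196 and 1135 with siβ-catenin (log2 fold change -0.46, adjusted p = 0.0397, under the size required). In BRCA2-proficient cells they were RBL2 (-0.75, adjusted p = 0.0738) and E2F7 (0.65, adjusted p = 0.273). Without the library labelled siβ-catenin replicate 2, replicate 3 was the single one of its group, and these were -0.44 and 0.03. With replicate 2 as the single one instead, E2F2, E2F4, E2F7 and RBL2 had log2 fold changes of -0.74, 0.68, 1.09 and -1.13. In BRCA2-deficient cells RBL1 was called when untreated replicate 1 was left out (-0.60, adjusted p = 0.032).

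BRCA2-deficient cells were low in E2F2 and E2F8 at baseline and under GSK3i. Among untreated cells 4 of 10 members were called lower, against 4.14% of all genes, and the median log2 fold change of the members was -0.548 against 0.003 over all genes. E2F2 was at 808 and 629 normalised counts in BRCA2-proficient and 276, 323 and 339 in BRCA2-deficient cells (log2 fold change -1.22, SE 0.214, adjusted p = 1.96e-06). E2F8 was at 490 and 361 and then 115, 166 and 148 (log2 fold change -1.59, SE 0.26, adjusted p = 2.16e-07). No BRCA2-deficient library reached the lower BRCA2-proficient one for either gene. The control group has 2 libraries, and without its replicate 2 the adjusted p of E2F2 was 0.082, so that 1 member (E2F8) stayed called.

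E2F1 and RBL1 were lower by a smaller margin. E2F1 was at 1788 and 1493 normalised counts and then 1222, 1098 and 1117 (log2 fold change -0.54, SE 0.17, adjusted p = 0.0235). RBL1 was at 1121 and 1011 and then 456, 662 and 807 (log2 fold change -0.75, SE 0.259, adjusted p = 0.0457). The groups were apart for both, but with edgeR the adjusted p was 0.0972 for E2F1 and 0.129 for RBL1. Both calls were also lost without BRCA2-proficient untreated replicate 2 (0.772 and 0.601) or 3 (0.305 and 0.367), or without BRCA2-deficient untreated replicate 2 (0.291 and 0.163). In 1 model over all groups E2F1 had 0.135. E2F7 (-0.67, adjusted p = 0.263) and RB1 (-0.55, adjusted p = 0.191) were not called, but without BRCA2-deficient untreated replicate 3 they were (-1.21, adjusted p = 9.11e-08, and -0.78, adjusted p = 0.0037). RBL2 (-0.09, adjusted p = 0.886, 95% interval -0.58 to 0.40), E2F3, E2F4 and E2F5 were not called. The untreated libraries are also the controls of the GSK3i comparison, so the values for E2F1 and RBL1 in these comparisons share samples.

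Under GSK3i 2 of 10 members were called lower in BRCA2-deficient cells, against 3.05% of all genes. E2F2 was at 469, 567 and 569 normalised counts in BRCA2-proficient and 407, 370 and 361 in BRCA2-deficient cells (log2 fold change -0.51, SE 0.16, adjusted p = 0.0235). E2F8 was at 288, 374 and 366 and then 133, 220 and 182 (log2 fold change -0.94, SE 0.239, adjusted p = 0.00243). Neither gene overlapped between the groups. With edgeR the adjusted p was 0.0832 and 0.0566 and neither was called. Without BRCA2-proficient GSK3i replicate 2 or 3 both calls were lost (E2F2 0.233 and 0.208, E2F8 0.07 and 0.0535), and that of E2F2 also without BRCA2-deficient GSK3i replicate 2 or 3 (0.147 and 0.141). E2F1 (0.06, adjusted p = 0.914) and RBL1 (-0.27, adjusted p = 0.505) were not called under GSK3i.

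**Figure D4:**
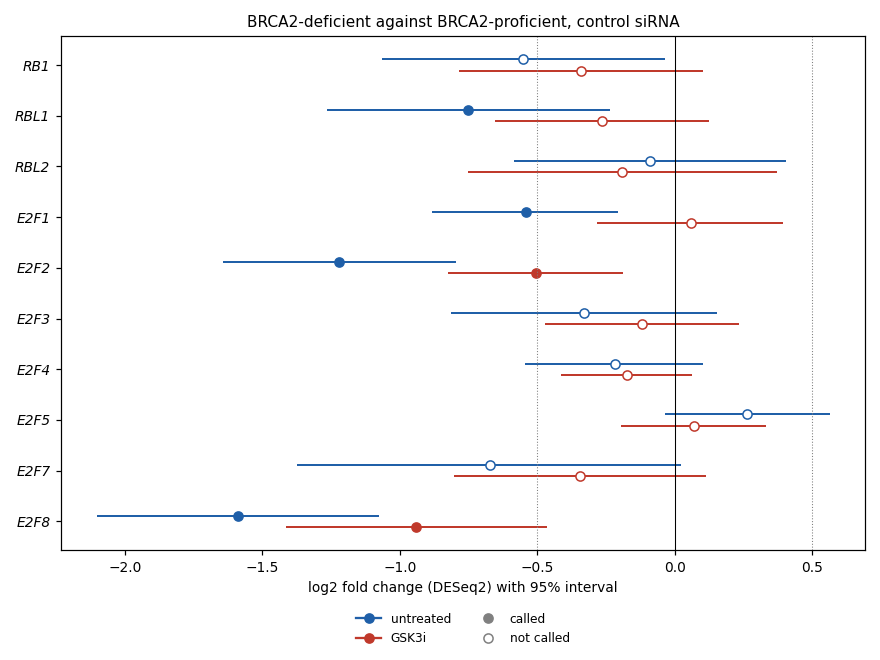
Log2 fold change of BRCA2-deficient against BRCA2-proficient cells (x axis) with its 95% interval for each gene (y axis), untreated (blue) and with GSK3i (red), control siRNA. Filled points are called, and dotted lines mark the size required for a call. E2F2 and E2F8 are called lower in both.

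After siβ-catenin, BRCA2-deficient cells had 6 of 10 members called lower, against 13.8% of all genes, and 1 higher, against 13.6%. E2F8 was at 306 and 521 normalised counts and then 91, 108 and 122 (log2 fold change -1.98, adjusted p = 6.09e-10). RBL1 was at 1267 and 1339 and then 450, 490 and 516 (log2 fold change -1.45, adjusted p = 2.62e-15). E2F1, E2F2, E2F7 and RB1 were lower too. None of the 6 overlapped between the groups, but genes without overlap were not counted over all genes. Without the library labelled siβ-catenin replicate 2, the BRCA2-proficient group was replicate 3 alone, whose score of -0.23 lay between the ranges with and without GSK3i. E2F7 then went from -1.47 to -0.85, and RBL2, higher at 0.63 (adjusted p = 0.0317) with all libraries, went to 0.32. With all libraries RBL2 was not called by edgeR (adjusted p = 0.0541). Without BRCA2-deficient siβ-catenin replicate 1 the calls of E2F1, RB1 and RBL2 were lost (0.0758, 0.0616 and 0.105), without its replicate 2 those of E2F1 and RBL2 (0.0701 and 0.137), and without BRCA2-proficient siβ-catenin replicate 3 those of E2F1 and E2F2 (0.0894 and 0.0823). E2F3, E2F4 and E2F5 were called in some of these fits. With both treatments 2 of 10 were called lower, against 4.36% of all genes. These were E2F8 (-1.22, adjusted p = 1.49e-04) and E2F2 (-0.71, adjusted p = 0.0123), and without the library labelled GSK3i plus siβ-catenin, replicate 2 they had -1.05 (adjusted p = 0.00111) and -0.66 (adjusted p = 0.0249), and RBL1 was added (-0.58, adjusted p = 0.0142). The call of E2F2 was lost with edgeR (0.0798), without BRCA2-proficient replicate 1 or 3 of this treatment (0.0727 and 0.0586) and without BRCA2-deficient replicate 1 or 2 (0.0506 and 0.114).

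The genes around the family were read from lists of known targets, partners and regulators. With GSK3i 5 of 32 G1/S targets of E2F were called higher in BRCA2-proficient cells, a share near the 11.8% of all genes, and 9 without untreated replicate 2. In BRCA2-deficient cells 16 were called higher, against 11.6% of all genes. The medians were 0.17 and 0.52 on the log2 scale. Among those called higher in both were FEN1, a flap endonuclease of DNA replication (0.84 and 1.25), MYBL2, the B-Myb transcription factor (0.61 and 1.19), and CDC6, which loads the replicative helicase (0.61 and 1.04). In BRCA2-proficient cells the call of CDC6 was lost without untreated replicate 3 (adjusted p = 0.0501) and that of MYBL2 in 1 model over all groups (0.0674). In BRCA2-deficient cells after siβ-catenin, GSK3i raised 21 of 32, against 8.56% of all genes, with a median of 0.71. Of 20 G2/M genes bound by DREAM, 2 were called lower and 0 higher in BRCA2-proficient cells, a share of lower calls below the 14.2% of all genes. The 2 became 1 without untreated replicate 2 or GSK3i replicate 1, and with 1 model over all groups or a replicate block. In BRCA2-deficient cells 7 were called higher, against 11.6% of all genes, and 1 lower, against 13.8%. The medians were -0.11 and 0.38. CDC25C, a phosphatase that starts mitosis, had -0.91 and -0.69, and in BRCA2-deficient cells its call was lost without untreated replicate 2 (adjusted p = 0.137) or GSK3i replicate 3 (0.0931). The interaction with BRCA2 status had a median difference of 0.42 for the G1/S and 0.51 for the G2/M list. It called 0 G1/S genes and 1 G2/M gene, FOXM1, a transcription factor of G2/M genes (0.68, DESeq2 adjusted p = 0.00938). That call was lost with edgeR and with 1 model over all groups (adjusted p = 1 in each), and when any library but BRCA2-deficient untreated replicate 3 was left out, 10 of 11 cases. With a replicate block, for which pairing was not established here, 7 G1/S and 3 G2/M genes were called.

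Of 13 partners of E2Fs and pocket proteins, 3 were called higher and 2 lower with GSK3i in BRCA2-proficient cells, against 11.8% and 14.2% of all genes. In BRCA2-deficient cells 4 were called higher and 1 lower, against 11.6% and 13.8%. The shares called lower were near or below those of all genes. TFDP1, the main DP partner, was higher (0.58 and 0.84), as was E2F6, a Polycomb-linked E2F outside the list of members (0.68 and 0.83), while TFDP2 had -1.03 and -0.56. The latter call of TFDP2 (adjusted p = 0.0327) was lost with edgeR (0.056) and without BRCA2-deficient untreated replicate 2 or 3 (0.181 and 0.139) or GSK3i replicate 1 or 3 (0.106 and 0.0755). Of 13 cyclins, kinases and inhibitors acting on pocket proteins, 2 rose and 6 fell in BRCA2-proficient cells, against 11.8% and 14.2% of all genes. In BRCA2-deficient cells 1 rose and 5 fell, against 11.6% and 13.8%. The shares that rose were near or below those of all genes. Without BRCA2-deficient untreated replicate 1, or GSK3i replicate 2 or 3, the 5 became 3, and without untreated replicate 2 or GSK3i replicate 1 the 1 became 0. In BRCA2-proficient cells the 2 became 1 without untreated replicate 3. The ones lower in both included the kinase inhibitor genes CDKN2C (-1.23 and -1.04), CDKN1B (-0.92 and -0.90) and CDKN1C (-3.02 and -2.30).

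In untreated cells, BRCA2 depletion lowered 21 and raised 1 of 32 G1/S targets and lowered 19 of 20 G2/M genes, against 4.14% of all genes called lower and 2.77% higher, with medians of -0.73 and -0.90. PLK1, a mitotic kinase (-1.14, adjusted p = 1.64e-07), and MCM7, a subunit of the replicative helicase (-0.91, adjusted p = 1.31e-07), are named after their values were seen. The call of MCM7 was lost without BRCA2-proficient untreated replicate 2 (adjusted p = 0.0729). The counts rested on the small control group: without BRCA2-proficient untreated replicate 2 the counts lower were 0 and 4, and with edgeR 9 and 11. Under GSK3i 2 of 32 G1/S targets were called lower, against 3.05% of all genes, and 1 higher, against 3.76% (1 and 0 with edgeR). Of 20 G2/M genes 4 were called lower, but 2 with edgeR or TMM factors, 1 with 1 model over all groups, 7 with a replicate block, and 2 without any 1 of the BRCA2-proficient GSK3i libraries or without BRCA2-deficient GSK3i replicate 3. The medians were -0.21 and -0.42. After siβ-catenin, BRCA2-deficient cells without GSK3i had 9 of 32 G1/S targets lower than untreated ones, against 0.82% of all genes, and with GSK3i 8 were lower than without the siRNA, against 2.57%. With edgeR these were 0 and 1, and with 1 library left out 2 to 12 and 3 to 8.

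Over the 22 libraries the members fell into loose sets by their log2 levels, given as a description because libraries of a group share their treatment. E2F2 and E2F8 had a Pearson r of 0.91, E2F7 and RBL1 of 0.89, E2F3 and E2F7 of 0.87, and E2F4 and RBL2 of -0.87. Among 11898 genes, those most like E2F1 were PKMYT1 (0.968) and TACC3 (0.957), those most like E2F2 were RACGAP1 (0.951) and CEP55 (0.949), and those most like E2F8 were BARD1 (0.972) and DEPDC1 (0.963). RBL1 was most like RFWD3 and WDHD1 (0.989 each), and RBL2 most like CHD6 (0.977) and BRD3 (0.971). E2F4 was most like NOP16 and PDSS1 (0.973 each), E2F3 like SBNO1 (0.973) and CRK (0.97), and E2F7 like SMC6 (0.958) and CEP128 (0.957). RB1 was most like TEAD1 (0.957) and SOS1 (0.954).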

How the data were processed

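Poly(A) RNA libraries (stranded kit, paired-end) were aligned with HISAT2 2.0.4 to GRCh37, handled with SAMtools 1.4, cleared of duplicates with Picard 1.9.2 and counted with featureCounts 1.5.0, per the labels, and the authors deposited whole-number read counts per Ensembl gene. The study's reporting summary lists other versions of HISAT2, Picard and featureCounts than the labels. The annotation release and strand setting are not given in the sources used here. Counts were tested with DESeq2 1.42.0 (R 4.3.3) as in the study's methods, on the groups compared, over genes with no more than 3 libraries under 10 counts (interactions: at least 10 counts in at least 3 libraries), and the study's thresholds were used. Normalised counts are divided by size factors over all libraries. RPKM uses merged exons of a GRCh37 annotation. Alternatives were edgeR 4.0.16, TMM factors, no filter, 1 model over all groups, a replicate block and leaving out each library. The code was tested on simulated data.

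Replicates are separate samples by their labels, and the study describes independent experiments. Deviations from group means of same-numbered libraries correlated in all 3 pairs of GSK3i in BRCA2-deficient cells (r = 0.523, 0.173 and 0.499). The same held for its siβ-catenin counterpart (0.407, 0.327 and 0.374). It held in these cells for siβ-catenin with GSK3i (0.674, 0.371 and 0.414) or without it (0.273, 0.226 and 0.205). It also held for BRCA2 depletion with both treatments (0.211, 0.105 and 0.222). In the comparisons named so far the numbers were taken to pair libraries. BRCA2 depletion with GSK3i alone also had r above 0 in all 3 pairs (0.423, 0.08 and 0.318), but was not counted as paired. Nor was the addition of siβ-catenin to GSK3i where BRCA2 was present (0.136, 0.099 and 0.206). Their lowest values, 0.08 and 0.099, were close to the 0.105 that was accepted, so this division is not sharp. The members and lists were chosen with earlier results of these data known, and genes of the lists were named where they changed the same way in both backgrounds with the lowest adjusted p. UHRF1 and PECAM1 were not analysed here. The genes most like E2F5 are not reported here.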

Additional observations from a re-analysis of the deposited data

Results flagged for a closer look

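The response of FOXM1 to GSK3i differed between the BRCA2 backgrounds by the interaction term. Its log2 fold change with GSK3i was 0.17 with BRCA2 (adjusted p = 0.264) and 0.86 after BRCA2 depletion (adjusted p = 7.64e-08), and the difference was 0.676 (SE 0.145, DESeq2 adjusted p = 0.00938). With edgeR the interaction called 0 of all genes. The call of FOXM1 was also lost in 1 model over all groups (adjusted p = 1) and in 10 of 11 fits with 1 library left out, where the difference was 0.63 to 0.7. These include either of the 2 BRCA2-proficient untreated libraries, replicate 2 (adjusted p = 0.298) and replicate 3 (0.386). Without BRCA2-deficient untreated replicate 3 it was 0.76 (adjusted p = 2.3e-05). No member of the E2F and pocket-protein family met this test.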

How the results depend on the processing

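Of 1930 values of members under an alternative, 56 lost a call, 37 gained one and 0 called values changed sign, and 126 values not called in either setting changed sign. The number of members called depended on the tool where responses were small. With edgeR it went from 1 to 0 for siβ-catenin under GSK3i in both backgrounds, from 4 to 2 for BRCA2 depletion in untreated cells, from 2 to 0 under GSK3i and from 2 to 1 with both treatments. With TMM factors it was 0 for siβ-catenin under GSK3i in BRCA2-deficient cells and 1 for BRCA2 depletion under GSK3i, and with 1 model over all groups 1 for the latter and 2 for the interaction of GSK3i with siβ-catenin in BRCA2-proficient cells. With a replicate block the interaction of GSK3i with BRCA2 depletion called 1 member, E2F1 (0.66, adjusted p = 0.00357), but pairing was not established for the BRCA2-proficient libraries, whose numbers 2 and 3 had r of 0.089 and 0.068. Beyond E2F2 and E2F8 in the report, the block changed no call in the paired comparisons, and RBL1 in BRCA2 depletion of untreated cells (0.0746) and RB1 and RBL2 after siβ-catenin (0.126 and 0.152) lost their calls where pairing was not established. Leaving out both replicate 2 libraries of the BRCA2-proficient siβ-catenin groups (chosen after seeing the data) left 1 library without GSK3i, so calls of members are not counted for that fit.

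Leaving out 1 library at a time gave 4 calls for GSK3i in BRCA2-proficient cells, 3 to 6 in BRCA2-deficient cells, 4 to 6 after siβ-catenin in BRCA2-deficient cells, 0 to 1 for siβ-catenin under GSK3i in either background, 0 to 4 for siβ-catenin alone with BRCA2 and 0 to 1 after its depletion. For BRCA2 depletion it gave 1 to 6 untreated, 0 to 2 under GSK3i, 4 to 8 after siβ-catenin and 1 to 3 with both, and 0 to 4 for the interaction of GSK3i with siβ-catenin in BRCA2-proficient cells. Over all genes edgeR called 183 against 836 for siβ-catenin under GSK3i in BRCA2-proficient and 267 against 939 in BRCA2-deficient cells, 1 against 524 and 0 against 351 without GSK3i, and 326 against 1185, 645 against 1112 and 483 against 1319 for BRCA2 depletion untreated, under GSK3i and with both. Without both replicate 2 libraries 1101 genes against 9 were called for GSK3i after siβ-catenin. The cause of these differences was not tested. Every member had at least 97 reads in each library, so that the intervals reflect groups of 2 or 3 libraries as well as counting error.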
